A study of Homo sapiens with 24 samples.

Results

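The transcriptional response to the synthetic androgen R1881 was examined in LNCaP:C4-2 prostate cancer cells (C4-2 below) in which METTL3 had been depleted by siRNA. C4-2 is a castrate-resistant derivative of the androgen-responsive human line LNCaP. The 6 samples, taken by their titles as the siMETTL3 libraries of this line with R1881 or vehicle, are 6 of the 24 in the series, which also holds a non-targeting siRNA control (siSCR) and the 22Rv1 line in the same layout, 3 samples in each of 8 groups. All groups were kept in phenol-red-free RPMI with charcoal-stripped serum, which carries little steroid, and were transfected with DharmaFECT 2 and an ON-TARGETplus siRNA pool. A second transfection came 48 h later, together with either 1 nM R1881 in ethanol or ethanol alone, for 72 h. Both arms of the response described here, R1881 and vehicle, therefore carry siMETTL3, and the siSCR cells had the same schedule. The model is limited to 1 cell line with a transient, partial knockdown. Neither the labels nor the methods say whether the 3 samples of a group are separate cultures, so p-values measure only the spread between these samples, which may be technical.

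Androgens act through a nuclear hormone receptor that is held in the cytoplasm by chaperones until it binds hormone, then enters the nucleus, binds DNA as a dimer and recruits coactivators or corepressors. In luminal cells of the prostate it drives secretory proteins such as the kallikreins, lipid synthesis and protein export, and it represses several growth factor and androgen-inactivating genes. METTL3 is the catalytic subunit of the nuclear complex that places N6-methyladenosine (m6A) on RNA. The comparison asks which genes respond to androgen when this writer is reduced.

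Total counts of the 6 libraries ran from 16714495 to 19617789 (15716224 to 21306019 over all 24), and 3 counts corresponded to a mean of 0.163 CPM in the vehicle samples and 0.162 CPM in the R1881 samples. CPM are counts per 1000000 counts of a library, scaled by TMM factors. Mitochondrially encoded genes took 6.46% to 9.60% of the counts. The 9.60% belonged to siMETTL3 vehicle sample 1, and the others of the 6 libraries reached at most 7.05%. METTL3, on chromosome 14, was measured at 18.4, 18.4 and 16.2 CPM in the 3 vehicle samples and at 21.05, 20.7 and 21.4 CPM in the 3 R1881 samples with siMETTL3, means of 17.7 ± 1.26 and 21.1 ± 0.371 (SD, n = 3 each). With siSCR the means were 27.03 ± 2.07 and 31.2 ± 2.64 CPM (SD, n = 3 each). Every siMETTL3 sample lay below every siSCR sample of its treatment, a difference of −34.6% with vehicle and −32.6% with R1881 (exact two-sided permutation test p = 0.1 for each, the smallest that 3 against 3 allows). In edgeR the knockdown was −0.61 on the log2 scale with vehicle (Benjamini-Hochberg adjusted p = 0.0127) and −0.57 with R1881 (adjusted p = 0.0256), and it did not pass with R1881 when any 1 siMETTL3 R1881 sample, or siSCR R1881 sample 2 or 3, was left out (edgeR adjusted p from 0.0667 to 0.162). It also failed with vehicle without siMETTL3 vehicle sample 2 or siSCR vehicle sample 1 or 3 (edgeR adjusted p from 0.0552 to 0.0982). The study reports METTL3 knockdown in this line, with and without R1881, by RT-qPCR and Western blotting. METTL3 itself was not called between R1881 and vehicle under siMETTL3 (log2 fold change 0.25 ± 0.11, edgeR adjusted p = 0.134).

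A single library stood apart. Vehicle sample 1 correlated with vehicle samples 2 and 3 at Pearson's r of 0.987 and 0.986 across genes on log2 CPM, against 0.9965 between samples 2 and 3. Among 9753 genes with a vehicle mean of at least 10 CPM, 11.5% were more than 1.5-fold off in sample 1 from the mean of the other two, against 0.0513% between samples 2 and 3. The offset moved with exonic length: the median log2 difference of sample 1 was −0.23 in the shortest of 5 equal groups of genes (57 to 3052 bases) and 0.21 in the longest (8362 to 43102 bases). Its part in the results was not tested, and results without that sample are therefore given beside many, though not all, of those that it changed.

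With METTL3 depleted, R1881 changed 1747 of 16435 genes tested (10.6%), 836 higher (5.09%) and 911 lower (5.54%). Calls required a fold of at least 1.5 and an edgeR p, adjusted by Benjamini-Hochberg, under 0.05. Values after ± are SE of the fit where they follow a log2 fold change, and a pair of CPM values joined by "to" gives the means of 3 vehicle and of 3 R1881 samples. The median log2 fold change was 1.18 among genes called higher and −1.11 among genes called lower, against −0.003 over all genes tested. Large responses were more often increases: 103 called genes were over 8-fold higher and 55 over 8-fold lower, and 56 and 28 passed 16-fold. Genes called higher summed to 41942 CPM with vehicle and 95223 CPM with R1881, while genes called lower summed to 25556 and 12496 CPM. Protein-coding genes were called in 11.4% of cases (715 higher and 762 lower of 12933) and long non-coding RNAs in 8.42% (79 higher and 101 lower of 2139). The R1881 and vehicle samples did not overlap for 1724 of the 1747 and for 5537 of all 16435 genes tested (33.7%), and calls favour genes without overlap by their construction. Without vehicle sample 1, 1736 genes were called (837 higher, 899 lower), of which 1477 were shared, and 1161 of the 1747 stayed called whichever of the 6 samples was left out. The shares 10.6%, 5.09% and 5.54% are those to hold beside every count of called genes in a list, and a share near them is no result about the list. In bulk RNA, fewer cells of a kind and less RNA per cell cannot be told apart.

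**Figure D1:**
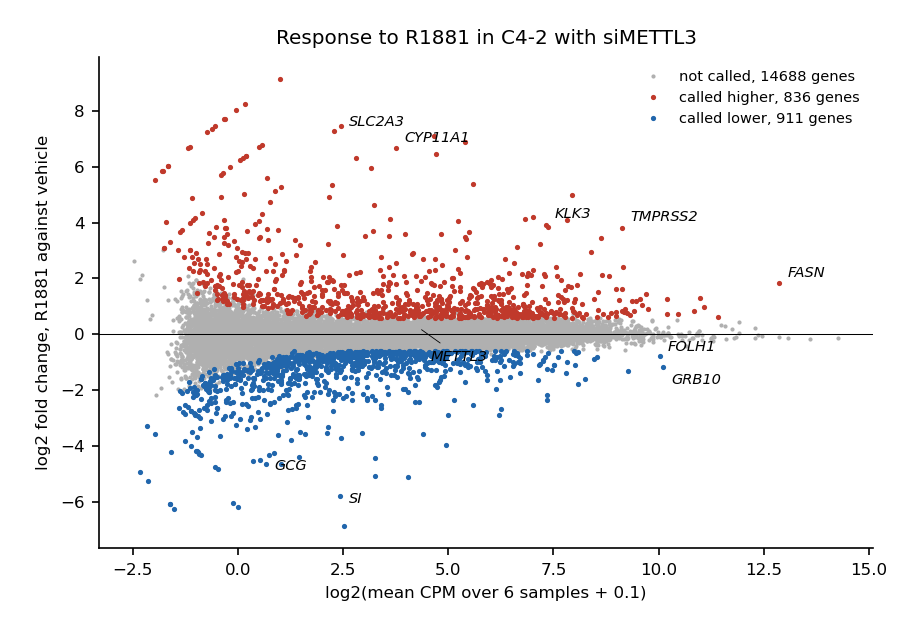
Each point is 1 of 16435 genes: the x axis is the log2 of the mean CPM over the 6 siMETTL3 samples plus 0.1, and the y axis is the log2 fold change of R1881 against vehicle. The 836 genes called higher (red) and the 911 called lower (blue) spread over a wide range of levels. FASN is the most abundant gene called higher, and METTL3 is among the genes not called (grey).

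Genes known to be induced by androgen in prostate cells responded as a block. Of 30 such genes, all tested, 28 were called higher and 0 lower, with a median log2 fold change of 2.94, and their summed level went from 1816 CPM (1679 to 1912 over the 3 vehicle samples) to 8261 CPM (7491 to 8798 over the 3 R1881 samples). The choice of this list used published knowledge and earlier results of these data, so the count is a description. KLK3, the secreted kallikrein measured clinically as prostate-specific antigen, stood at 20.6, 20.6 and 18.4 CPM with vehicle and 332, 308 and 267 CPM with R1881. Its R1881 samples all lay far above its vehicle samples (log2 fold change 3.93 ± 0.13, edgeR adjusted p = 1.47e-11). The neighbouring kallikrein KLK2 went from 9.69, 16.9 and 13.4 to 244, 248 and 238 CPM, with close R1881 samples and a wider spread among the low vehicle samples (log2 fold change 4.18 ± 0.18, edgeR adjusted p = 1.82e-10). KLK2 and KLK3 are similar in sequence, and reads may be split between them.

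TMPRSS2, a membrane serine protease whose promoter is often fused to ERG in prostate cancer, was measured at 89.4, 74.7 and 60.3 CPM with vehicle and 1136, 1298 and 725 CPM with R1881. Its R1881 samples were the more variable, with the third well below the others, and none overlapped the vehicle samples (log2 fold change 3.82 ± 0.22, edgeR adjusted p = 8.06e-09). FKBP5, a co-chaperone of steroid receptors, was at 65.2, 66.8 and 68.5 CPM with vehicle and 732, 786 and 657 CPM with R1881 (log2 fold change 3.44 ± 0.10, edgeR adjusted p = 2.18e-12), and the 2 treatments were clearly separate. SLC45A3, the solute carrier also called prostein, rose from 12.6, 15.6 and 16.6 CPM to 499.6, 474 and 466 CPM (log2 fold change 5.003 ± 0.15, edgeR adjusted p = 2.18e-12). The basic leucine zipper factor MAF was close to absent with vehicle, at 0.473, 0.572 and 0.676 CPM, and stood at 49.1, 55.98 and 49.8 CPM with R1881 (log2 fold change 6.47 ± 0.16, edgeR adjusted p = 1.48e-12). PMEPA1, an inhibitor of SMAD signalling, was at 18.9, 20.4 and 22.2 CPM and then 194, 173 and 169.6 CPM (log2 fold change 3.12 ± 0.13). Samples of the 2 treatments did not overlap in any of these genes.

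Among the other members of the list, ABCC4, a transporter that exports cyclic nucleotides, rose from 151 to 653 CPM in the means, and SORD, which converts sorbitol to fructose, from 249 to 761 CPM. KLK4, another kallikrein, rose by a smaller amount, log2 1.52 ± 0.15, and NDRG1, a stress- and androgen-regulated gene, by log2 0.83 ± 0.19. The metalloreductase STEAP4 had 1 count over the 3 vehicle samples and 75 over the R1881 samples, a ratio of 74.7 with a 95% counting interval from 13.01 to 2990 (exact Clopper-Pearson). NNMT, nicotinamide N-methyltransferase, had no count with vehicle and was at least 8.51-fold higher with R1881, taking 3 counts per vehicle library as the limit. Not called were EAF2 (log2 fold change 0.44, edgeR adjusted p = 0.146) and MED28 (−0.15, edgeR adjusted p = 0.342). MPHOSPH9 was called at log2 0.63 ± 0.16 but fell below the threshold without vehicle sample 2 or 3 or R1881 sample 2. The counts 28 and 0 were the same without vehicle sample 1.

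**Figure D2:**
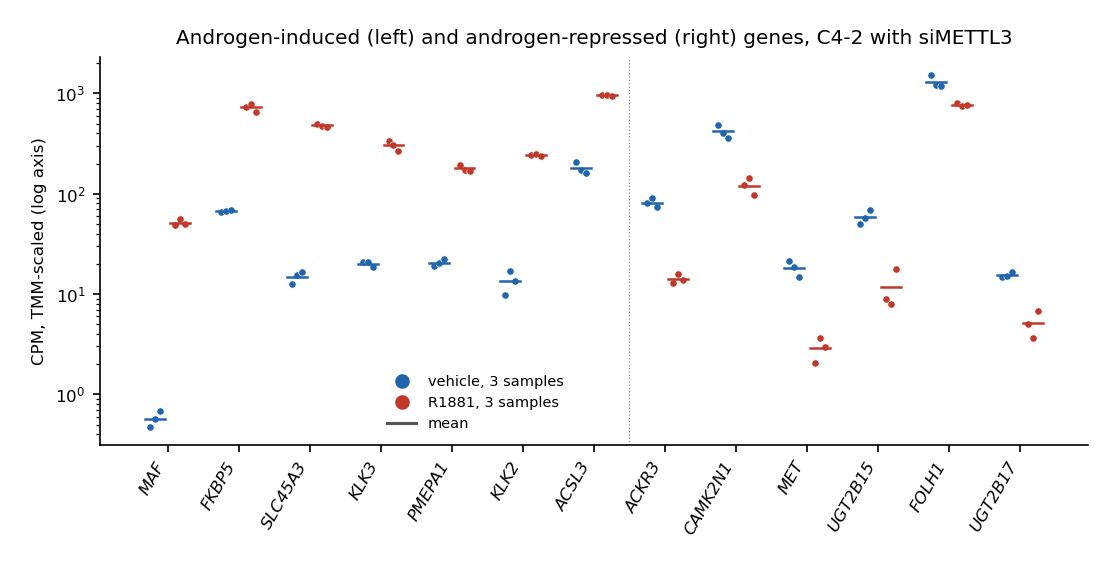
TMM-scaled CPM on a log axis in each of the 3 vehicle (blue) and 3 R1881 (red) siMETTL3 samples, with lines at the means, for 7 androgen-induced genes on the left and 6 androgen-repressed genes on the right. No gene shown has an R1881 sample within the range of its vehicle samples.

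The promoter windows of tested genes were read for the palindromic androgen response element. Its half-site AGAACA is followed by any 3 bases and by the reverse complement TGTTCT. The same letters are the element of the glucocorticoid receptor, and being a palindrome it reads alike on both strands. Windows ran from 250 bases before to 50 bases after the gene start in RefSeq (GRCh38.p14), and up to 2 mismatches in the 12 fixed bases were allowed. Of 30 androgen-induced genes 21 had a window and 2 held a match (9.52%), against 102 of 11402 tested genes (0.895%), 8 of 589 genes called higher (1.36%), 13 of 636 genes called lower (2.04%) and 475 of 27305 promoters in the table (1.74%). A match is a description of the letters, not a bound site. These are the matches in the 2 androgen-induced genes, in a gene with no vehicle count and in the gene that lost the most CPM, with the 15 bases of the element in capitals and 7 bases on each side.
KLK3, chr19:50854738-50854766, plus strand: taattgcAGAACAGCAAGTGCTagctctc
PMEPA1, chr20:57710794-57710822, minus strand: ttaaaccTGAAGAATGTGTTCTtgtagca
PNLIPRP3, chr10:116427863-116427891, plus strand: ataaggtGGAATAACATGTTCTtttaaac
GRB10, chr7:50782985-50783013, minus strand: agtggagGGAACAAGGGGTTCTtcagggt
The element begins 170 bases before the start of KLK3, 238 before that of PMEPA1 and 110 before that of GRB10, while in PNLIPRP3 it begins at base 24 of the transcript.

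Genes known to be repressed by androgen were lower. Of 10 listed, 8 were tested, 6 of them were called lower and 0 higher, and the median log2 fold change was −1.69. ACKR3, the atypical chemokine receptor CXCR7, was at 81.3, 90.2 and 73.4 CPM with vehicle and 12.8, 15.7 and 13.8 CPM with R1881, with the treatments well apart (log2 fold change −2.53 ± 0.15, edgeR adjusted p = 1.01e-08). CAMK2N1, an inhibitor of calcium/calmodulin-dependent kinase II, was at 488, 403 and 362 CPM and then 122, 143 and 97.4 CPM (log2 fold change −1.79 ± 0.14, edgeR adjusted p = 1.47e-07). The hepatocyte growth factor receptor MET was at 21.2, 18.4 and 14.8 CPM and then 2.06, 3.63 and 2.94 CPM (log2 fold change −2.65 ± 0.21, edgeR adjusted p = 1.68e-07). All R1881 samples of these genes lay below all vehicle samples. FOLH1, which encodes prostate-specific membrane antigen, remained abundant, at 1539, 1213 and 1185 CPM with vehicle and 810.4, 741 and 764 CPM with R1881 (log2 fold change −0.77 ± 0.10, edgeR adjusted p = 3.82e-05).

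Among 22 genes of the receptor's cofactors and partners tested, 6 were called higher and 1 lower, with a median log2 fold change of 0.08 (0.04 without vehicle sample 1). Besides FKBP5, the increases named here were in SPDEF, an ETS factor of secretory epithelium (73.4 to 313 CPM, log2 fold change 2.09 ± 0.15), and the epithelial factor GRHL2 (97.9 to 193 CPM, 0.98 ± 0.09). They also included the SUMO ligase PIAS1 (log2 fold change 1.08 ± 0.15) and the coactivator NCOA1 (0.72 ± 0.11). The coactivator NCOA3 was called lower (log2 fold change −0.61 ± 0.12), and its call was lost without vehicle sample 1 (−0.47).

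Genes that inactivate or make steroids moved in both directions. The UDP-glucuronosyltransferases, which conjugate androgens for removal, split: of 7 tested, 2 were called higher and 2 lower. Without vehicle sample 1 UGT2B10 was also called lower. UGT2B15 was at 50.5, 57.1 and 68.5 CPM with vehicle and 8.98, 7.997 and 17.9 CPM with R1881, lower in every R1881 sample (log2 fold change −2.34 ± 0.29, edgeR adjusted p = 2.98e-05). UGT2B17 also fell (log2 fold change −1.59 ± 0.22), whereas UGT2B28 (3.88 to 22.9 CPM, 2.56 ± 0.28) and UGT2B11 (18.1 to 47.4 CPM, 1.39 ± 0.23) rose. These genes are near-identical copies, so how reads were divided among them is uncertain. Of 9 steroid synthesis enzymes tested, 2 were called higher and 1 lower. CYP11A1, the side-chain cleavage enzyme that begins steroid synthesis from cholesterol, was at 0.355, 0.156 and 0.26 CPM with vehicle and 35.1, 20.04 and 24.04 CPM with R1881. It was barely detected in every vehicle sample (log2 fold change 6.67 ± 0.47, edgeR adjusted p = 5.59e-08). The call of SRD5A3 (log2 fold change −0.65) was lost without vehicle sample 1 (−0.58), and that of HSD17B6 (1.15) without vehicle sample 2 or 3 or R1881 sample 3 (edgeR adjusted p from 0.0527 to 0.0567).

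The largest single responses came from genes with little or no transcript in 1 treatment. Among called genes averaging at least 1 CPM, those with the largest fitted rises are given first, and for genes at or near 0 counts the order of the fitted values is not supported by the counts. PNLIPRP3, a pancreatic lipase related protein, had counts of 0, 0 and 0 with vehicle and 73, 59 and 78 with R1881, at least 23.2-fold higher. The antisense transcript AQP4-AS1 had no vehicle count either and was at least 12.5-fold higher. SLC2A3, the high-affinity glucose transporter GLUT3, had counts of 1, 2 and 0 with vehicle and 195, 232 and 164 with R1881, a ratio of 196 (95% counting interval 66.8 to 955). NBL1, a BMP antagonist, had 3 counts in all with vehicle and 530 with R1881, a ratio of 176 (95% counting interval 59.9 to 856). For the acute-phase protein ORM2 the sums were 1 and 152 (ratio 151, 95% counting interval 26.8 to 6020), and its near-identical copy ORM1 may share its reads. The olfactory receptor pseudogene OR7E47P showed sums of 1 and 145 (ratio 144, 95% counting interval 25.5 to 5745). Next were 2 secreted products, the aspartic protease precursor PGC (0.355, 0.468 and 0.26 CPM with vehicle, 58.4, 49.4 and 42.8 CPM with R1881, log2 fold change 7.09 ± 0.27) and the natriuretic peptide NPPC (1.06, 0.416 and 0.676, then 99.9, 103 and 48.2 CPM, 6.87 ± 0.50). Such intervals cover counting error only.

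Among the largest falls, GC, the vitamin D binding protein, had counts of 194, 201 and 225 with vehicle and 3, 0 and 2 with R1881, a ratio of 125 in favour of vehicle (95% counting interval 53.1 to 385). SI, the intestinal sucrase-isomaltase, was at 11.997, 8.78 and 10.5 CPM with vehicle and 0.271, 0.0533 and 0.218 CPM with R1881 (log2 fold change −5.80 ± 0.34, edgeR adjusted p = 8.16e-09). The secreted phospholipase PLA2G2A fell from 31.6 to 0.918 CPM (−5.09 ± 0.24) and the protocadherin PCDH19 from 18.4 to 0.538 CPM (−5.07 ± 0.20). GCG, the glucagon precursor, summed to 159 counts with vehicle and 6 with R1881 (ratio 26.6 in favour of vehicle, 95% counting interval 11.9 to 73.6). Albumin, ALB, summed to 208 and 8 counts (ratio 26.1) and the amino acid transporter SLC6A20 to 125 and 5 (ratio 25.1, 95% counting interval 10.5 to 78.6). Near them stood the kinase-like secreted protein gene GASK1B (−4.42), the scavenger receptor COLEC12 (−4.39) and the pantetheinase VNN2, whose counts summed to 145 and 6 (ratio 24.3, 95% counting interval 10.9 to 67.2). For each of these genes the 2 treatments did not overlap, which the rule for naming them required.

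Counting protein-coding genes that were called, 7 had 0 counts in all 3 vehicle samples and 5 had 0 counts in all 3 R1881 samples. The 7 were PNLIPRP3, ORM1 (at least 10.7-fold higher), NNMT, the pancreatic lipase PNLIP (at least 6.18-fold), the growth hormone releasing hormone receptor GHRHR (at least 4.30-fold), the neuropeptide CARTPT (at least 4.19-fold) and the alcohol dehydrogenase ADH1C (at least 1.88-fold). The 5 were LRRTM3 (at least 3.08-fold lower), CA1 (2.79), CNTN1 (2.79), CLEC2A (1.56) and PTPRC (1.21), all near the limit that 3 counts per library allows. The call of CLEC2A was lost without vehicle sample 3 or R1881 sample 1 or 2 (edgeR adjusted p from 0.055 to 0.0643).

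By amount of transcript, FASN, fatty acid synthase, gained the most, from 3137, 3356 and 3336 CPM with vehicle to 11524, 14412 and 8889 CPM with R1881. Its R1881 samples varied, yet each was far above each vehicle sample (log2 fold change 1.82 ± 0.15, edgeR adjusted p = 3.06e-07). The lipid hydrolase ABHD2 was at 1375, 1145 and 961 CPM and then 2842, 3199.9 and 2564 CPM (log2 fold change 1.31 ± 0.12). Next were INSIG1, FADS2, the small heat shock protein HSPB1 (log2 fold change 0.84 ± 0.19), TMPRSS2, ACSL3, the cytokine GDF15 (1.44 ± 0.32) and SREBF1 (0.74 ± 0.12). GRB10, an adaptor that dampens insulin and IGF receptor signalling, lost the most, from 1625, 1506 and 1416 CPM with vehicle to 693, 693 and 636 CPM with R1881. Its groups were tight and separate (log2 fold change −1.17 ± 0.08, edgeR adjusted p = 5.07e-08). After FOLH1 came the kinesin heavy chain KIF5B (879.9 to 357 CPM, log2 fold change −1.30 ± 0.13), the sodium pump subunit ATP1B1 and CAMK2N1. The list of losses ended with the small GTPase RAP2B (−2.34), the selenium-binding protein SELENBP1 (−0.88), the Rac exchange factor PREX1 (−2.19), the sialyltransferase ST3GAL1 (−0.83) and the guanine nucleotide exchange factor ARHGEF26 (−1.39), all on the log2 scale.

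Many lipid synthesis genes were higher with R1881. Of 26 genes of cholesterol synthesis and SREBP control, 12 were called higher and 0 lower (median log2 fold change 0.59), and between 10 and 14 were called higher when 1 sample was left out, 10 of them without vehicle sample 1. INSIG1, the sterol-sensing brake on SREBP, was at 1633, 1362 and 1351 CPM with vehicle and 2820.2, 2841 and 2891 CPM with R1881 (log2 fold change 0.98 ± 0.10, edgeR adjusted p = 3.24e-06). Every R1881 sample exceeded every vehicle sample. FDFT1, squalene synthase, rose by log2 0.92 ± 0.08 and the isomerase IDI1 by 0.81 ± 0.10. EBP and MVD were no longer called without vehicle sample 1 (log2 0.52 and 0.57).

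In fatty acid synthesis 10 of 22 genes were called higher and 1 lower (median log2 fold change 0.49). ACSL3, which activates fatty acids on lipid droplets, was at 209, 173 and 161 CPM with vehicle and 956, 964 and 943 CPM with R1881 (log2 fold change 2.40 ± 0.10, edgeR adjusted p = 1.93e-10). The elongases ELOVL5 (122 to 410.3 CPM, log2 fold change 1.75 ± 0.09) and ELOVL7 (26.7 to 101 CPM, 1.93 ± 0.17) rose, while their relative ELOVL6 fell (109.9 to 50.04 CPM, −1.13 ± 0.12). The desaturase FADS2 had the smallest called change (log2 0.62 ± 0.10) and was under the 1.5-fold threshold without vehicle sample 1 (0.54) or R1881 sample 2 (0.57). Oxidation genes responded less uniformly, with 4 of 21 called higher, 2 lower and a median of 0.09 (0.03 without vehicle sample 1). ACADL, long-chain acyl-CoA dehydrogenase, rose from 7.77 to 63.6 CPM (log2 fold change 3.03 ± 0.15), and the thiolase ACAA2 fell from 15.2 to 5.94 CPM (−1.36 ± 0.13).

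Of 29 glycolysis and HIF-1 target genes, 4 were called higher and 1 lower (17.2% called), with a median log2 fold change of 0.09 (0.006 without vehicle sample 1). SLC2A3 was the largest, followed by PFKFB2, which sets the level of fructose 2,6-bisphosphate (38.3 to 94.5 CPM, log2 fold change 1.30 ± 0.09), ANKRD37 (1.26 ± 0.27) and the angiogenic factor VEGFA (601 to 1126 CPM, 0.91 ± 0.20). The carbonic anhydrase CA9 fell (70.2 to 30.6 CPM, −1.20 ± 0.25). Of 13 polyamine genes 3 were called higher and 0 lower (median 0.26). Those were SAT1, the catabolic acetyltransferase (39.2 to 175 CPM, log2 fold change 2.16 ± 0.14), ODC1, the first enzyme of synthesis (406 to 921 CPM, 1.18 ± 0.10), and AMD1 (0.80 ± 0.14). In the amino acid transport list 4 of 21 were called higher and 2 lower, led by the leucine carrier SLC43A1 (103 to 461 CPM, log2 fold change 2.16 ± 0.09). Without vehicle sample 1 the counts of that list were 5 and 3, with SLC38A2 and SESN2 added. DEPTOR, an inhibitor bound to mTOR, was called lower (20.3 to 7.08 CPM, −1.52 ± 0.15).

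The secretory pathway list had 4 of 27 called higher and 1 lower (18.5%, median 0.08), and without vehicle sample 1 it had 6 higher, with KDELR3 and SEC24D added (median 0.13). ST6GALNAC1, which adds sialic acid to O-glycans, rose from 12.1 to 213 CPM (log2 fold change 4.14 ± 0.13, edgeR adjusted p = 7.35e-12), and UAP1, which makes UDP-N-acetylglucosamine, from 195 to 556 CPM (1.51 ± 0.10). FUT8, the core fucosyltransferase, fell from 30.8 to 15.4 CPM (−1.004 ± 0.12). None of the 20 ER stress genes was called by edgeR (median 0.02, and 0.008 without vehicle sample 1), although 1 higher and 1 lower were called without vehicle sample 1, and 1 lower without vehicle sample 3 or R1881 sample 2.

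Cell cycle lists had slightly negative medians and few calls. None of 32 DNA replication genes was called by edgeR, their median was −0.30, and 1 of the 32 had a positive log2 fold change. Without R1881 sample 3, 4 of them were called lower. Of 30 mitosis genes, 1 was called lower, none had a positive log2 fold change, and the median was −0.37. That gene was TOP2A, the topoisomerase that untangles chromosomes, at 293, 232 and 217 CPM with vehicle and 129, 132 and 164 CPM with R1881, whose treatments did not overlap (log2 fold change −0.80 ± 0.18, edgeR adjusted p = 0.00483). There were 4 such calls without R1881 sample 3 and 2 without vehicle sample 3. Among 22 G1 regulators, cyclin CCNE2 was called lower (log2 fold change −0.84 ± 0.20) and the inhibitor CDKN1C higher (0.89 ± 0.26), 9.09% of the list, and both calls depended on single samples: CCNE2 was lost without R1881 sample 1 or 2, and CDKN1C without vehicle sample 1 or 3 or R1881 sample 1 or 2. Without R1881 sample 3 the list had 3 genes called lower, and without vehicle sample 1 or 2 it had 2, CDKN2C joining in the first case. MYC, the growth-promoting transcription factor, was at 136, 156 and 148 CPM with vehicle and 236, 206 and 219 CPM with R1881. It sat at the fold threshold (log2 fold change 0.59 ± 0.09, edgeR adjusted p = 0.0003) and under it without vehicle sample 1 or R1881 sample 1 (0.53 and 0.52). Of 24 genes in the MYC and ribosome list MYC and its antagonist MXD1 were the 2 called, both higher (8.33%). The call of MXD1 was lost without vehicle sample 2 or 3 or R1881 sample 2 (log2 0.53, 0.49 and 0.48). Among 20 p53 targets GDF15 was called higher and the death receptor FAS (log2 fold change −1.48 ± 0.29) and TP53INP1 (−0.999 ± 0.12) lower (15%).

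Genes of the growth factor axes were called at many points. Of 19 ERBB and IGF genes 6 were called higher and 5 lower, and EGF was also called higher without vehicle sample 1. The IGF-1 receptor IGF1R was at 14.01, 8.52 and 10.4 CPM with vehicle and 78.3, 85.1 and 62.3 CPM with R1881, with no overlap (log2 fold change 2.78 ± 0.18, edgeR adjusted p = 2.53e-08). The adaptors IRS1 (10.5 to 37.4 CPM, log2 fold change 1.82 ± 0.16) and IRS2 (4.79 to 16.7 CPM, 1.80 ± 0.23) rose with it, and the receptor inhibitors ERRFI1 (27.4 to 162 CPM, 2.57 ± 0.14) and LRIG1 (30.6 to 103 CPM, 1.75 ± 0.14) also rose. EGFR rose from 186 to 321 CPM (0.79 ± 0.16). The IGF-binding proteins IGFBP3 (42.01 to 11.3 CPM, −1.89 ± 0.22) and IGFBP5 (9.52 to 2.48 CPM, −1.93 ± 0.24) fell, as did the EGFR ligands TGFA (−1.41) and HBEGF (−0.87). IGFBP4 summed to 43 counts with vehicle and 5 with R1881. Among 19 MAPK and immediate early genes 3 were called higher and 1 lower (21.1%, median 0.40). DUSP4, a nuclear phosphatase for ERK, rose by log2 1.06 ± 0.20. The calls of DUSP1 and FOSL2 were lost without R1881 sample 2, leaving 1 higher, and that of DUSP1 also without vehicle sample 2 or 3 or R1881 sample 1. Without R1881 sample 3, 5 genes of the list were called higher.

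In the TGF-beta, BMP and WNT list 5 of 24 were called higher and 9 lower (median −0.31). The WNT receptor FZD5 (24.8 to 87.4 CPM, log2 fold change 1.82 ± 0.09) and the BMP receptor BMPR1B (1.35 to 9.79 CPM, 2.85 ± 0.20) rose. LEF1, a transcription factor of the WNT pathway (4.46 to 1.33 CPM, −1.74 ± 0.27), the WNT feedback ligase RNF43 (13.6 to 6.02 CPM, −1.18 ± 0.17), the ligand BMP7 (2.39 to 0.467 CPM, −2.34 ± 0.39) and the BMP target ID2 (11.8 to 5.19 CPM, −1.19 ± 0.20) fell. SMAD6 was not called without vehicle sample 1 or R1881 sample 1 or 2, and TGFBR3 not without vehicle sample 1 or R1881 sample 2 or 3. SMAD7 was called only with all 6 samples or without vehicle sample 1.

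Guidance and adhesion genes were mostly lower where they were called. Of 24 axon guidance genes, 6 were called lower and 0 higher (median −0.27). SEMA3C, a secreted semaphorin, was at 131, 98.97 and 104 CPM with vehicle and 29.98, 28.3 and 28.4 CPM with R1881, the R1881 samples almost equal (log2 fold change −1.94 ± 0.12, edgeR adjusted p = 1.01e-08). The membrane semaphorin SEMA6A (202 to 103 CPM, log2 fold change −0.96 ± 0.10), the netrin receptor UNC5B (13.5 to 6.74 CPM, −1.002 ± 0.16) and the ephrin EFNB2 (25.5 to 15.2 CPM, −0.75 ± 0.15) followed. Of 28 integrin and matrix genes 6 were called lower, among them fibronectin, FN1 (88.8 to 32.3 CPM, −1.46 ± 0.12), and integrin beta 4, ITGB4 (−0.79 ± 0.14), and 3 higher, led by the laminin chain LAMA1 (0.703 to 17.8 CPM, 4.62 ± 0.38). In the epithelial and mesenchymal list 5 of 17 were called higher and 1 lower: the keratins KRT8 (0.78 ± 0.14) and KRT19 (1.31 ± 0.15), the claudins CLDN3 (0.89 ± 0.21) and CLDN4 (0.83 ± 0.17) and the mesenchymal repressor SNAI2 (6 counts over the vehicle samples and 170 over the R1881 samples) rose, and the tight junction protein OCLN fell (−0.80 ± 0.12). Without vehicle sample 1 TJP1 was also called higher.

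Ion transport genes of secretory epithelium divided evenly, 6 of 21 higher and 6 lower. ATP1B1, the accessory subunit of the sodium pump, was at 499.8, 456 and 416 CPM with vehicle and 157, 150.3 and 144 CPM with R1881, all R1881 samples lower (log2 fold change −1.60 ± 0.09, edgeR adjusted p = 3.72e-09). The cold-sensing channel TRPM8 (0.272 to 8.47 CPM, 4.93 ± 0.34) and the potassium channels KCNN2 (6.85 to 76.6 CPM, 3.48 ± 0.17) and KCNMA1 (13.3 to 54.5 CPM, 2.03 ± 0.13) rose. The epithelial sodium channel subunits SCNN1B (10.8 to 2.12 CPM, −2.35 ± 0.42) and SCNN1G (15.9 to 3.08 CPM, −2.36 ± 0.33) and the metallothionein MT2A (114 to 36.2 CPM, −1.65 ± 0.09) fell. Of 26 interferon and antigen presentation genes, 3 were called higher and 2 lower (19.2%). The regulator IRF1 fell (10.1 to 4.14 CPM, −1.29 ± 0.15) and B2M, the light chain of class I molecules, rose (149 to 249 CPM, 0.74 ± 0.10). The call of IRF7 was lost without vehicle sample 1 (0.56).

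No gene of the m6A system was called: 0 of 18 writers, readers and erasers tested, METTL3 included, with a median of 0.03, and 1 (CBLL1) higher without vehicle sample 1. The 13 mitochondrially encoded genes (median −0.13, and 0.06 without vehicle sample 1), 6 neuroendocrine genes (−0.11, and −0.26 without that sample) and the reference genes ACTB (−0.15) and GAPDH (−0.08) had no call either, although 1 neuroendocrine gene was called lower without vehicle sample 2. The cells had the markers of their labelled type: 11 of 12 luminal markers were tested, and NPY alone had 0 counts in all 6 samples. Of the basal markers TP63 had 0 counts and KRT5 at most 1 in a sample, and the summed basal list ran from 17.2 to 22.6 CPM with vehicle and 17.4 to 20.99 CPM with R1881. KRT15 and KRT14 were called higher within it at 0.0717 to 1.12 CPM and 0.0173 to 0.396 CPM in the means, the second with a call lost without vehicle sample 1 or 2 or R1881 sample 1. DST, the other basal marker tested, made up most of the summed list and was not called (log2 fold change −0.16, edgeR adjusted p = 0.473). The stromal list summed to between 58.5 and 69.2 CPM with vehicle and 62.98 and 64.6 CPM with R1881, with 2 of 8 genes over 10 counts in a sample. Endothelial markers summed to 2.07 to 3.54 CPM with vehicle and 4.43 to 11.9 CPM with R1881, of which VWF was the 1 gene over 10 counts (1.49 ± 0.29). Leukocyte markers summed to 0.414 to 0.624 CPM with vehicle and 1.03 to 1.31 CPM with R1881, without overlap, with 1 of 7 genes over 10 counts in a sample. That gene, LYZ, had 0, 2 and 1 counts with vehicle and 4, 10 and 15 with R1881 and was not tested. PTPRC, the 1 leukocyte marker tested, was called lower. The part of these genes in the other results was not tested.

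**Figure D3:**
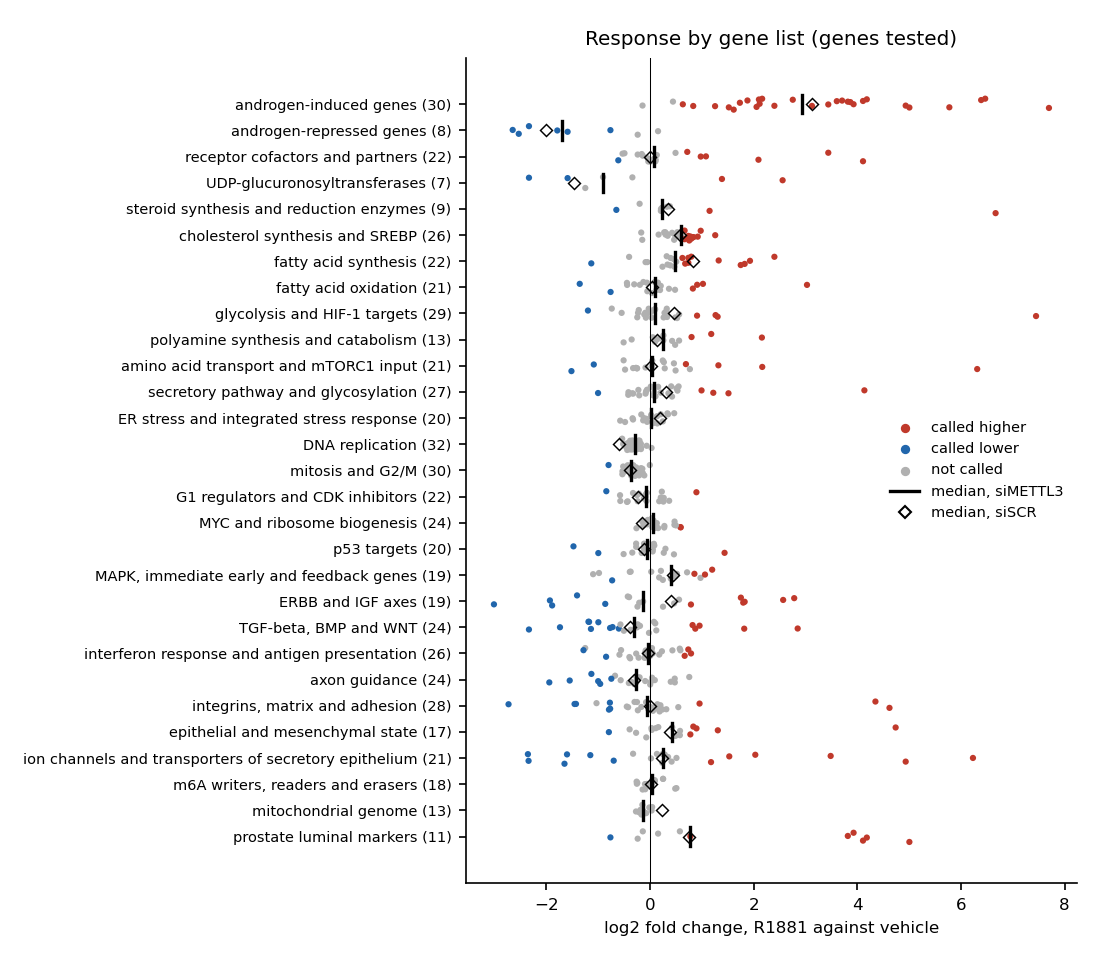
The log2 fold change of R1881 against vehicle with siMETTL3 for each tested gene of 29 lists (number tested in brackets), with genes called higher in red, lower in blue and not called in grey, black bars at the list medians and diamonds at the medians with siSCR. Androgen-induced genes lie far to the right (median 2.94) and androgen-repressed genes to the left (−1.69), while most other medians lie near 0. The small cell type lists other than the luminal one, the neuroendocrine list and the reference genes are left out.

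Whether the response differed from that of cells with METTL3 at its control level was tested as an interaction of R1881 with the siRNA in the same 12 C4-2 libraries. The siSCR response is measured on other samples, so no library is shared. No gene was called by edgeR at an adjusted p under 0.05 (0.0% of 16435, smallest adjusted p 0.0673), while 2037 had an unadjusted p under 0.05. The latter count was 1404 of 16852 genes without siMETTL3 vehicle sample 1. It ran from 1163 to 3294 when 1 of the other libraries was left out. DESeq2 called 57 genes, 17 with a higher and 40 with a lower log2 fold change under siMETTL3, and edgeR without a filter on low counts called 351. Leaving out 1 library gave 0 calls in 10 of 12 cases, 8 without siMETTL3 vehicle sample 3 and 1 without siSCR vehicle sample 2. With siSCR 2484 genes were called between R1881 and vehicle, 1278 of them called in the same direction with siMETTL3. A further 469 were called with siMETTL3 alone (185 higher, 284 lower), and 1206 with siSCR alone. Of the 469, 434 had the same sign with siSCR and 130 (27.7%) had an unadjusted interaction p under 0.05. Of the 1206, 1082 had the same sign with siMETTL3 and 499 (41.4%) had such a p, against 12.4% of all genes, and their median change in the direction of the siSCR call was 0.82 with siSCR and 0.36 with siMETTL3 on the log2 scale. For the 469, the median change in the direction of the siMETTL3 call was 0.81 with siMETTL3 and 0.43 with siSCR on that scale. Both sets were picked by 1 of the responses that the interaction compares. None of either was called in the interaction, so a call under 1 siRNA pool does not show a difference between the pools.

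The androgen-induced list gave medians of 2.94 with siMETTL3 (2.81 without siMETTL3 vehicle sample 1) and 3.13 with siSCR. Those of the androgen-repressed list were −1.69 (−1.65 without that sample) and −2.01. KLK3 (log2 fold change 3.93 with siMETTL3, 4.08 with siSCR) and FKBP5 (3.44 and 3.49) lay close together. Medians with siMETTL3 and siSCR were −0.13 and 0.40 for ERBB and IGF genes, 0.09 and 0.46 for glycolysis and HIF-1 targets, −0.13 and 0.22 for mitochondrially encoded genes, 0.49 and 0.83 for fatty acid synthesis and −0.30 and −0.61 for DNA replication. Without siMETTL3 vehicle sample 1 these siMETTL3 medians were, in the same order, −0.17, 0.006, 0.06, 0.50 and −0.38. With all samples, the median over genes of the difference, siMETTL3 minus siSCR, was in that order −0.27, −0.39, −0.30, −0.14 and 0.27. For the UDP-glucuronosyltransferases the medians with siMETTL3 and siSCR were −0.91 (−0.27 without vehicle sample 1) and −1.48. No gene of these lists passed the interaction test. An unadjusted interaction p under 0.05 was found for 15 of 29 glycolysis and HIF-1 genes and 4 of 32 DNA replication genes, against 12.4% of all genes. The gene with the smallest interaction p was STC1, stanniocalcin 1, at 49.5, 43.2 and 38.8 CPM with vehicle and 13.96, 15.99 and 16.4 CPM with R1881 under siMETTL3 (log2 fold change −1.50) and near level under siSCR (−0.17), a difference of −1.33 (edgeR adjusted p = 0.0673). The ubiquitin ligase RNF150 had −1.77 and 0.81 and OTULINL had 2.31 and 3.44, and neither passed.

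**Figure D4:**
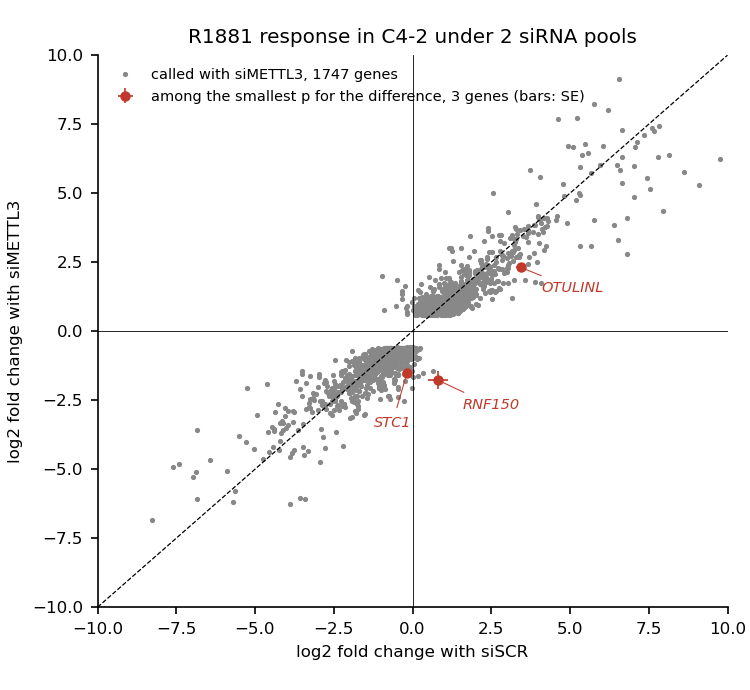
Log2 fold change of R1881 against vehicle with siSCR (x axis) and with siMETTL3 (y axis) for the 1747 genes called with siMETTL3 (grey), with the dashed line of equal change, and in red with bars of 1 SE 3 of the genes with the smallest p for the difference. Most grey points lie along the line, and the 3 red genes lie off it without passing the adjusted threshold.

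The same treatment of 22Rv1 cells, another human prostate cancer line, was compared with that of C4-2. In a fit of all 24 samples the siMETTL3 response differed between the lines in 2970 of 19437 genes (15.3%, edgeR adjusted p under 0.05). The direction split was unstable: 1642 had the higher log2 fold change in 22Rv1 and 1328 the lower with TMM scaling, but 1129 and 1632 with DESeq2's size factors, under which the median difference over all genes went from 0.05 to −0.03. Lower changes in 22Rv1 were also the more frequent without C4-2 vehicle sample 1 or 2, C4-2 R1881 sample 1 or 2, or 22Rv1 vehicle sample 2 or 3. Of the 1742 genes called in C4-2 that could be tested, 1171 had the same sign in 22Rv1 and 420 were called there in the same direction, while 79 were called in the opposite direction. These genes were chosen by their C4-2 values, which favours larger changes in C4-2. Among the 30 androgen-induced genes 24 differed, and the median log2 fold change in 22Rv1 was 0.30. KLK3 had a log2 fold change of 3.93 in C4-2 and −0.03 in 22Rv1, and TMPRSS2 had 3.82 and −0.14. By RT-qPCR, the study reports KLK3 induction by R1881 in its prostate cancer lines, in an experiment described without siRNA. FKBP5 changed alike in size (3.44 and 3.23), and its difference did not pass (−0.19, edgeR adjusted p = 0.25), nor did that of GNMT (2.75 and 2.65). The sodium channel subunit SCNN1G, called lower in C4-2 (−2.36), had 4.001 in 22Rv1.

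**Figure D5:**
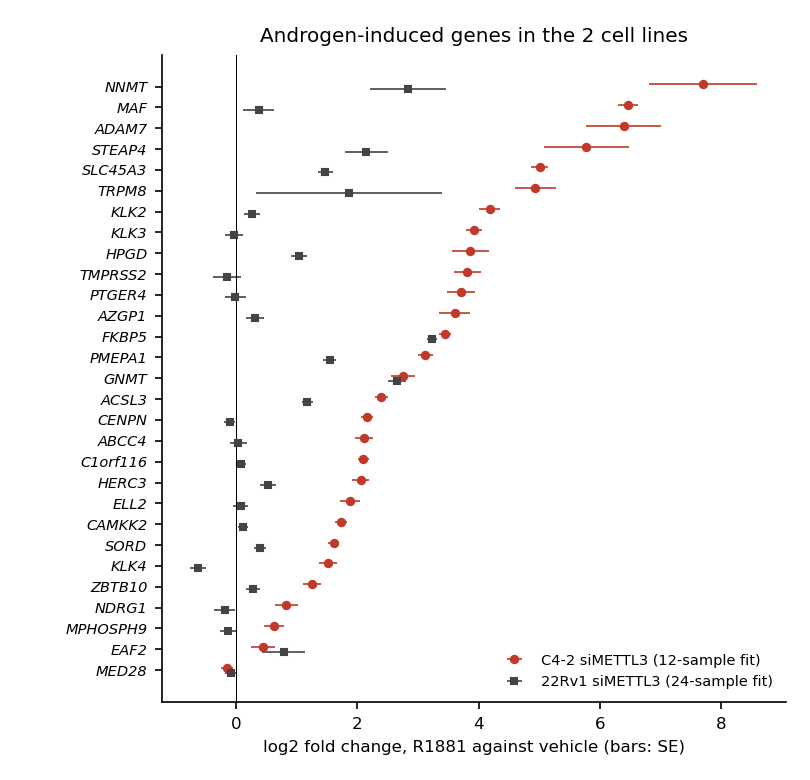
Log2 fold change of R1881 against vehicle under siMETTL3, with bars of 1 SE, for 29 androgen-induced genes in C4-2 (red circles, 12-sample fit) and 22Rv1 (grey squares, 24-sample fit), ordered by the value in C4-2. Most squares lie near 0, while FKBP5 and GNMT are close to their circles. ADAM7 has no square because its 22Rv1 value has no SE.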

How the data were processed

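RNA-seq was performed by the submitters on 24 cell line samples. Per the study's methods and the submitters' processing notes, paired reads were trimmed with Trim Galore (cutadapt, FastQC), aligned to GRCh38 with STAR (versions not given in the sources used here) and counted with featureCounts v1.5.0-p1 without strand on Ensembl release 83. The deposited values are the authors' raw counts per gene, 60675 genes a file. Without strand, reads of a gene and of an overlapping antisense gene cannot be told apart.

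From these counts, names were taken from the reference for 41209 genes, and the 12 C4-2 libraries were fitted in edgeR 4.0.16 (R 4.3.3) with quasi-likelihood tests, TMM scaling and a filter on low counts (filterByExpr), leaving 16435 genes. Calls needed a fold of at least 1.5 and a Benjamini-Hochberg adjusted p below 0.05, the study's thresholds, and in the interaction and cell line tests by adjusted p alone. The cell line test used all 24 samples (19437 genes). DESeq2 1.42.0, other scalings and filters, a replicate block and leaving out each sample were the alternatives. Scripts were tested on simulated data. Promoter letters came from RefSeq.

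Gene lists came from general knowledge, and the members and lists were chosen with earlier results of these data known. From each list up to 6 called members with the smallest adjusted p were named, with members a sentence needed. The others named were METTL3, the 10 largest rises and falls at a mean of at least 1 CPM without overlap of treatments, the 10 largest gains and losses of CPM, protein-coding genes at 0 counts in 1 treatment, and 5 genes each from the interaction and cell line tests. Other genes whose calls were lost without a sample, GNMT and SCNN1G were named after their values were seen. Some genes that these rules name are not reported here. Total counts per library were 15716224 to 21306019. Intervals and limits from 3 counts cover counting error only.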

Additional observations from a re-analysis of the deposited data

Results flagged for a closer look

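The response to R1881 under siMETTL3 differed between 22Rv1 and C4-2 in 2970 genes by the test of the difference itself (edgeR, Benjamini-Hochberg adjusted p under 0.05). The 4 genes named from that test, which were chosen by it, had smaller log2 fold changes in 22Rv1 than in C4-2. RHOU, an atypical small GTPase, rose from 21.4 to 308 CPM in C4-2 and had a log2 fold change of 0.06 ± 0.08 (SE) in 22Rv1, a difference of −3.775 (22Rv1 minus C4-2). The difference was −3.44 for the nuclear factor AFF3, −5.63 for the myosin-binding protein MYBPC1 and −3.51 for SLC45A3. SLC45A3 had a log2 fold change of 1.48 in 22Rv1 and MYBPC1 of 0.32. Line and culture history cannot be told apart in this design.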

How the results depend on the processing

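The count of 1747 genes called for R1881 under siMETTL3 stayed within 1.5 times under 14 of 16 alternatives, leaving out each of the 6 samples included (1423 to 1736). Those were DESeq2 (1812), DESeq2's size factors (1753), library size alone (1868, of which 38.3% higher against 47.9%), no filter (1939), 10 counts in every sample (1331), an adjusted p under 0.01 (1280) and the 6 samples alone (1581). It was 2728 without the fold threshold and 765 with that threshold inside the test, as each construction implies. Library size alone moved the median of all genes to −0.08. Interaction calls, 0 by edgeR, were 57 by DESeq2 (17 higher, 40 lower) and 351 without the filter, and 0 to 8 with 1 sample left out (1 without siSCR vehicle sample 2). The cause was not tested. Genes that differed between lines, 2970, were 1540 at an adjusted p under 0.01 and 2028 to 2870 with 1 sample left out. The METTL3 knockdown ranged from −0.66 to −0.55 with vehicle and from −0.65 to −0.52 with R1881 when 1 sample was left out, and passed in 3 of 6 and 1 of 6 cases. Replicate numbers in the titles are shared between groups, but samples with 1 number did not deviate together (mean r −0.017 over 18 pairs, −0.485 to 0.321), so they were not treated as paired. With the number as a replicate block 1679 genes were called for R1881, 0 for the interaction and 2965 between lines, and the knockdown with R1881 was −0.57 with an edgeR adjusted p of 0.0706. Of 210 called genes that were named or listed, 189 kept their call in every such fit that tested them. Another 21 fell below the threshold in at least 1, and 0 reversed. These fits were DESeq2, the other scalings and filters, the replicate block and leaving out each of the 6 samples. A gene that a filter removed was not counted as lost there. The stricter adjusted p, the fold threshold inside the test and the 6 samples alone were not part of this count. Leaving out vehicle sample 1 for the counts of lists and the calls of genes was chosen after seeing the data. Depth limits what can be said below about 0.163 CPM, the level of 3 counts.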
